A study of Homo sapiens with 4 samples.

Results

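Genes that mark and build the intestinal epithelium were examined in COLO205, a cell line of human colorectal cancer cells. They were 8 genes chosen by symbol, and each matched 1 row among the 19970 genes of the table: CDX1, CDX2, KLF4, KLF5 and GATA6, which encode transcription factors, and VIL1, CDH17 and CEACAM5, which encode proteins of the cell surface and the brush border. Cells of 2 control samples received no nonylphenol (NP), an alkylphenol with estrogenic activity, and cells of 2 NP samples received it at 1 µM. The study's methods name DMSO as the solvent of NP and as the control in its proliferation assays. Both groups were kept for 24 h and carried no genetic change made for the study, and RNA was then sequenced. Whether samples with the same treatment were grown as separate cultures is not stated, so each p-value covers just the spread among these 4 samples, which could be technical. A single cell line in culture was used, without the crypt, stroma or lumen of a colon.

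The identity of intestinal epithelium rests on a small network of transcription factors. The caudal-type homeobox factors CDX1 and CDX2 set the intestinal fate, and CDX2 is used in pathology as a marker of colorectal origin. The zinc finger factor GATA6 acts in stem and progenitor cells of the gut, and its relative GATA4 acts in the proximal small intestine. The Krüppel-like factors KLF5 and KLF4 bind related GC-rich sites, KLF5 mainly in dividing crypt cells and KLF4 mainly in cells that have left the cycle. Differentiated enterocytes carry a brush border of microvilli. VIL1 (villin) bundles actin in the core of each microvillus, CDH17 (LI-cadherin) joins neighbouring intestinal cells, and CEACAM5 (carcinoembryonic antigen) is a glycoprotein of the apical surface that is measured in serum of patients with colorectal cancer.

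Promoter sequences are shown first for the genes that passed the test with NP, GATA6 and KLF5, and for CDX2, which had the lowest level of the 8 genes. RefSeq (build GRCh38.p14) gave windows for 5 of the 8 genes, and KLF5 had 2 of them, 1 per start site. Each line holds the 250 bases before the RefSeq start site, 5′ to 3′ on the strand of the gene. Capitals mark every match, on either strand, to the letters TTTAT (the core of sites for CDX factors), AGATAA (the site of GATA factors) or CCNCNCCC (GC-rich sites of KLF proteins).
GATA6, chr18:22169339-22169588, plus strand: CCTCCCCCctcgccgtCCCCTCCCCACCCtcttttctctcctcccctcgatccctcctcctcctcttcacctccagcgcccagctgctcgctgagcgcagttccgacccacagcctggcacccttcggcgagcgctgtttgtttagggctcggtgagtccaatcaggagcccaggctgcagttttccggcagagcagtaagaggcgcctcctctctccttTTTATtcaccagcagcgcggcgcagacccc
KLF5, upstream start, chr13:73054726-73054975, plus strand: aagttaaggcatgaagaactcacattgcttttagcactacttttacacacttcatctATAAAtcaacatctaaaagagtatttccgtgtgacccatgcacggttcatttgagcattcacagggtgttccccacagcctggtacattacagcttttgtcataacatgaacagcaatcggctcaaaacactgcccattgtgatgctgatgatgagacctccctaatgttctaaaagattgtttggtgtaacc
KLF5, downstream start, chr13:73058755-73059004, plus strand: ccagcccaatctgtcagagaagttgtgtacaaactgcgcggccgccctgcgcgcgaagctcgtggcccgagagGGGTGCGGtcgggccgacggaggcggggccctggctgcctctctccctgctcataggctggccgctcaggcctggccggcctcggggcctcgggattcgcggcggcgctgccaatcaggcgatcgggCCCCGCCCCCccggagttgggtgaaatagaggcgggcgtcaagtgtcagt
CDX2, chr13:27969316-27969565, minus strand: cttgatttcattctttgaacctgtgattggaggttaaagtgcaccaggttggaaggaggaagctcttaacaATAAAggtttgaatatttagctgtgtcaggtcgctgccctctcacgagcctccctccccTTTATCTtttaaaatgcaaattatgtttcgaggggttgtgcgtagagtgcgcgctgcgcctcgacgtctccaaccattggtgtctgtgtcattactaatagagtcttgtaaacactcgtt

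The GATA6 window held 1 match to TTTAT, 30 to 26 bases before the RefSeq start, and 3 overlapping or neighbouring matches to CCNCNCCC at its far end. In the deposited coordinates GATA6 starts at 22169392, which is inside this window. The match to TTTAT thus lies within the gene as placed there, and not before its start. The CDX2 window held 2 matches to TTTAT and 1 to AGATAA, and the match to AGATAA at 119 to 114 bases before the start overlapped a match to TTTAT. The windows of KLF5 differed: the upstream one held 1 match to TTTAT and none to CCNCNCCC, and the downstream one held 3 matches to CCNCNCCC and none to TTTAT. Over all 35116 windows of this length, 32.7% held TTTAT, 9.17% held AGATAA and 53.4% held CCNCNCCC. These are matches of letters and do not show that a factor was bound.

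The 8 genes spanned a wide range of levels in COLO205 cells. On the scale of FPKM (counted reads divided by gene length and by the library total), the highest mean was 313-fold above the lowest. KLF5 had 350.0 and 346.4 FPKM in the control samples and 371.6 and 365.5 FPKM in the NP samples, and it ranked 68 among the 19970 genes. It supplied 65.5% to 66.5% of the summed FPKM of the 8 genes in every sample. CDH17 had 75.3 and 79.7 FPKM in control and 82.9 and 78.1 FPKM in NP samples. KLF4 had 52.0 and 50.1 FPKM in control and 51.5 and 51.3 FPKM in NP samples, and VIL1 had 42.1 and 39.2 FPKM in control and 40.9 and 39.5 FPKM in NP samples. CDH17, KLF4 and VIL1 each stood above 94.9% of the genes of the table.

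The other 4 genes were much lower. GATA6 had 6.07 and 6.17 FPKM in control and 7.88 and 7.81 FPKM in NP samples. CEACAM5 had 4.42 and 4.84 FPKM in control and 4.50 and 4.51 FPKM in NP samples. CDX1 had 1.91 and 1.55 FPKM in control and 1.76 and 1.60 FPKM in NP samples, from 38 to 53 reads per sample. CDX2 had 1.27 and 1.001 FPKM in control and 1.07 and 1.23 FPKM in NP samples, from 55 to 70 reads per sample. CDX1 and CDX2 thus lay near the middle of the table, above 51.8% and 48.4% of its genes. The order from high to low was KLF5, CDH17, KLF4, VIL1, GATA6, CEACAM5, CDX1 and CDX2, and in the 4 samples no gene overlapped its neighbour in this order. The smallest steps were between KLF4 and VIL1, 1.27-fold in the means, and between CDX1 and CDX2, 1.49-fold. For CDX1 and CDX2 this order rests on few reads. The place of VIL1 beside KLF4 has a limit too. In VIL1, 3045 exonic bases are shared with USP37 on the opposite strand, and how reads there were counted is not stated.

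**Figure D1:**
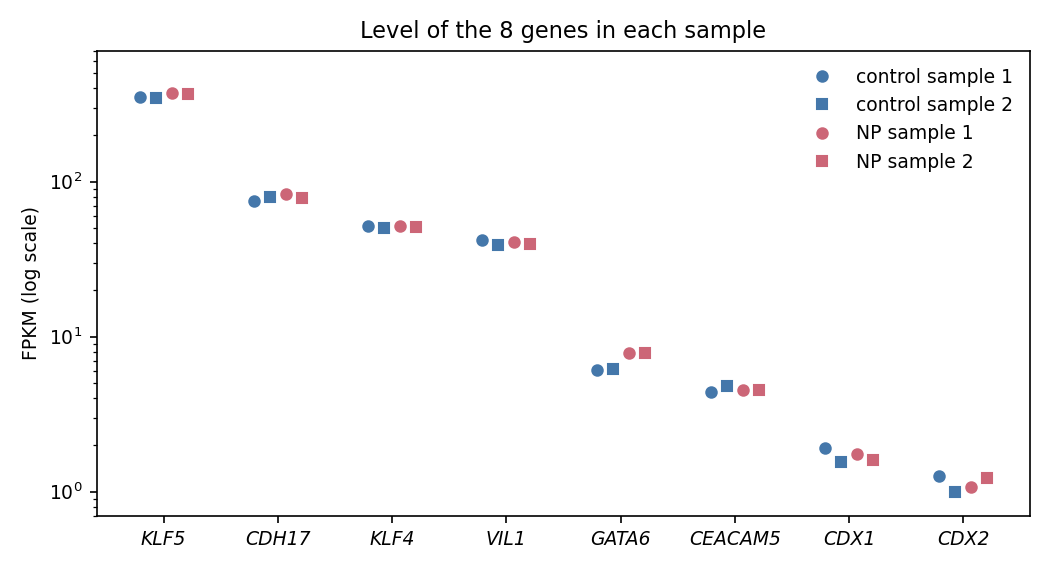
Level of each of the 8 genes in the 4 samples, in FPKM on a log axis, with 1 point per sample (blue, control; red, NP; circles, sample 1; squares, sample 2). The genes run from KLF5 near 358 FPKM on average to CDX2 near 1.14 FPKM, and the 4 points of a gene lie close together beside the steps between genes.

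The table places all 8 genes on GRCh38. KLF5 (ENSG00000102554) lies on chromosome 13 at 73054976 to 73077541, and CDX2 (ENSG00000165556) on the same chromosome at 27960918 to 27969315. GATA6 (ENSG00000141448) lies on chromosome 18 at 22169392 to 22202528, KLF4 (ENSG00000136826) on chromosome 9 at 107484852 to 107490482 and CDX1 (ENSG00000113722) on chromosome 5 at 150166778 to 150184558. VIL1 (ENSG00000127831) lies on chromosome 2 at 218419121 to 218453295, CDH17 (ENSG00000079112) on chromosome 8 at 94127162 to 94217303 and CEACAM5 (ENSG00000105388) on chromosome 19 at 41708585 to 41730433. The factors have 3 to 7 exonic blocks each, and VIL1 and CDH17 have 21 and 20. Some of the levels carry limits of gene annotation. In GENCODE release 29 (GRCh38), 3045 exonic bases of VIL1 on chromosome 2 also belong to USP37 on the opposite strand, and 43.3% of the 50-base words in VIL1 transcripts occur in other genes. Of the words in CEACAM5 transcripts, 16.3% occur elsewhere, mostly in the overlapping gene model AC243967.1, which is listed with no reads in the table. For GATA6 the share was 11.9%, or 465 words, and 273 of these occur in AC091588.3, an antisense gene at its locus. Another antisense gene there, GATA6-AS1, shares 240 exonic bases with GATA6. The sources do not say whether strand was used in counting, so reads of GATA6 and VIL1 cannot be told apart from those of their opposite-strand neighbours where exons overlap. For CDX1, CDX2, KLF4 and KLF5 no such word was shared, and for CDH17 it was 0.0496%.

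Genes around the 8 members gave a mixed intestinal picture of the cells at baseline. Of 22 other transcription factors of gut epithelium, 14 averaged at least 1 FPKM, led by ELF3 (56.8 FPKM on average), an epithelial ETS factor, SOX9 (46.5 FPKM), a factor of crypt progenitors, and EHF (45.4 FPKM), another epithelial ETS factor. GATA4, GATA5 and CDX4, close relatives of the members, had no read in any sample. Of 21 other genes for the structure of microvilli, 19 averaged at least 1 FPKM. They were led by EZR (87.7 FPKM), the linker ezrin, CDHR2 (62.0 FPKM), a cadherin of the links between microvillus tips, and BAIAP2L2 (59.3 FPKM), a membrane-bending protein of microvilli. The range was wide: CALML4 (0.052 FPKM), a light chain of the tip link myosin, and TMIGD1 (0.025 FPKM), an adhesion protein, were the lowest, and ESPN (1.03 FPKM), the actin bundler espin, was far below VIL1. In the family of villin itself, CAPG (29.2 FPKM), GSN (gelsolin, 22.2 FPKM) and FLII (19.5 FPKM) were the highest of 7 genes, and among 15 other KLF genes KLF6 (56.2 FPKM), KLF3 (34.3 FPKM) and KLF10 (25.3 FPKM) were.

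Enzymes and transporters of the brush border were mostly low or without reads. Only 5 of 20 averaged at least 1 FPKM, led by the sodium-proton exchanger SLC9A3 (21.0 FPKM), the peptidase DPP4 (18.7 FPKM) and the sodium-glucose transporter SLC5A1 (12.9 FPKM). ALPI (intestinal alkaline phosphatase), SI (sucrase-isomaltase) and LCT (lactase) had no read in any sample. Among all listed genes 34 had none, and a floor of 3 reads over the 4 samples allows at most 0.00328 to 0.0805 FPKM for them, depending on gene length. A list of 13 genes known to be regulated by CDX2 in intestinal cells was drawn up with the members left out. Of these 13, only GPA33 (95.7 FPKM), a surface antigen, and DSC2 (3.60 FPKM), a desmosomal cadherin, averaged at least 1 FPKM. This list overlaps the others: it shares ALPI, SI, LCT, GUCY2C, MEP1A and SLC26A3 with the enzymes, and ISX, CA1 and GPA33 with the factors, the colonocyte genes and the surface antigens. MUC2, the goblet cell mucin, had 3 reads in control sample 1, 1 read in NP sample 2 and none in the others. Of 13 genes of absorptive colonocytes, 5 averaged at least 1 FPKM. PHGR1 (617 FPKM), a small protein of intestinal epithelium, was the highest, ahead of SELENBP1 (19.5 FPKM), a selenium-binding protein, and FABP1 (6.18 FPKM), a fatty acid binding protein. AQP8, GUCA2B, MS4A12 and CLCA4 had no read, CA1, CA2 and CA4 (carbonic anhydrases) averaged 0.024, 0.25 and 0.048 FPKM, and KRT20, a keratin of differentiated intestinal cells, averaged 0.878 FPKM.

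Of 7 surface antigens of intestinal and other epithelia, 6 averaged at least 1 FPKM. EPCAM averaged 444 FPKM, LGALS4 (galectin-4) 408 FPKM and MUC13, a transmembrane mucin, 334 FPKM, while CDH16, a cadherin best known from kidney, averaged 0.243 FPKM. In contrast, the relatives of CEACAM5 were low: of 11, only CEACAM1 (5.98 FPKM) and CEACAM19 (4.36 FPKM) reached 1 FPKM, and CEACAM6 averaged 0.675 FPKM. Markers of other tissues were checked beside these levels. Of 10 markers of small intestine 2 averaged at least 1 FPKM, and their summed level was 6.43 to 7.17 FPKM in control and 8.04 and 10.1 FPKM in NP samples. Of 7 stomach markers 1 did so, with sums of 4.18 and 4.23 FPKM in control and 3.36 and 3.47 FPKM in NP samples. The 8 markers of stroma and endothelium summed to at most 0.930 FPKM and the 6 hepatocyte markers to at most 0.497 FPKM in any sample. The 6 leukocyte markers summed to 191.1 to 211.7 FPKM, nearly all of it from LYZ (lysozyme, 199 FPKM on average), which epithelial Paneth cells also make. CD14 averaged 0.838 FPKM, and PTPRC, CD3E and MS4A1 had no read. Markers of the labelled origin were thus split: EPCAM, GPA33, CDH17, VIL1 and PHGR1 were high, and CDX1, CDX2 and KRT20 were low. Under 1 FPKM stayed 8 of 13 colonocyte genes and 11 of 13 genes of the CDX2 list, which leaves out the members.

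**Figure D2:**
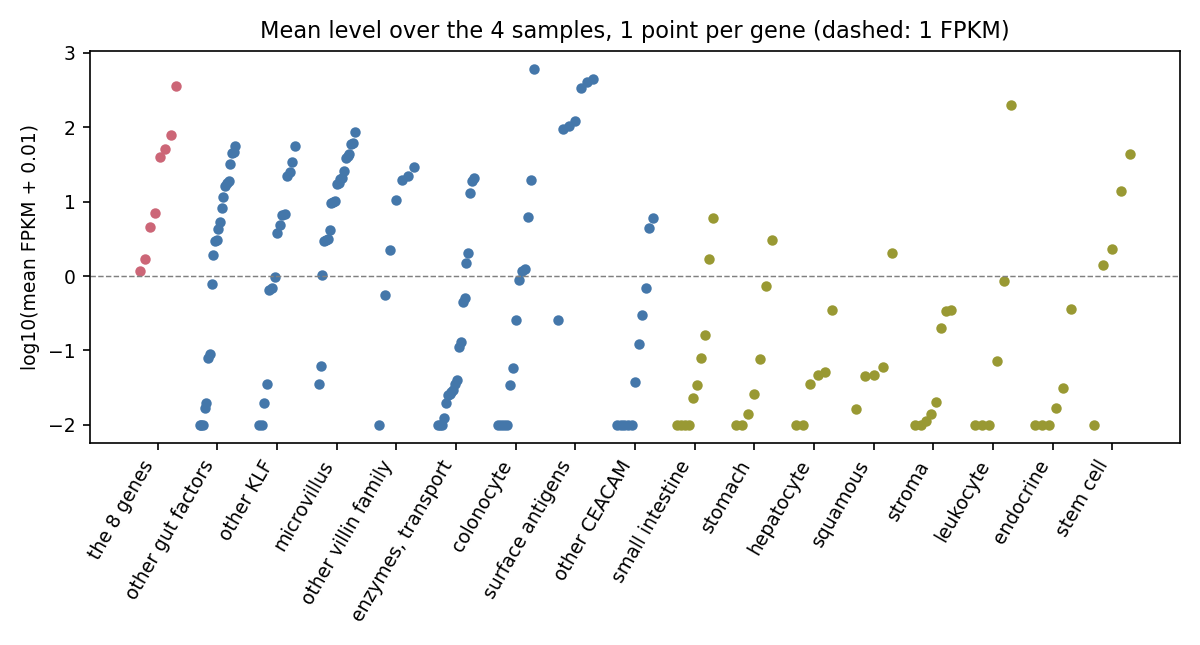
Mean FPKM over the 4 samples of every gene of the lists shown, as log10(FPKM + 0.01), with 1 point per gene (red, the 8 genes; blue, related gene lists; olive, markers of other tissues and cell types; dashed line, 1 FPKM). The list of genes regulated by CDX2 is not shown. Microvillus genes and surface antigens lie mostly above the line, and brush border enzymes, other CEACAM genes and most markers of other tissues lie below it.

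The effect of NP on the 8 genes was then tested. The raw read counts of the 12616 genes kept by a filter on low counts were fitted together in edgeR (quasi-likelihood test), with Benjamini-Hochberg adjustment over all of them. All 8 genes passed the filter. At an adjusted p under 0.05, 2 of the 8 genes were higher, GATA6 and KLF5, none was lower and 6 did not pass. Among all genes tested, 4.06% passed in either direction, 2.35% as higher and 1.7% as lower. The median log2 fold change was 0.02 over the 8 genes and 0.00 over all genes tested. At an unadjusted p under 0.05 the same 2 of the 8 genes passed, against 15.1% of all genes. At the cutoff that the methods of the study name, more than a log2 step of 1 at an unadjusted p under 0.05, none of the 8 genes qualified in edgeR or in DESeq2, against 0.428% of all genes.

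GATA6 showed the largest change of the 8 genes. On the scale of CPM (counts scaled to a common library size with TMM factors), it had 24.2 and 24.6 CPM in the control samples and 31.6 and 31.2 CPM in the NP samples. Both NP samples lay above both control samples, and the samples within a group were close to each other. The mean went from 24.4 ± 0.32 to 31.4 ± 0.27 CPM (n = 2 each, SD), a rise of 28.7% and a log2 fold change of 0.36 ± 0.089 (SE, edgeR adjusted p = 0.0069). Its 95% interval ran from 13.8% to 45.6%. Of the 297 genes past the threshold as higher, 54 had a larger log2 fold change than GATA6. In bulk RNA more cells of a type and more RNA per cell cannot be told apart.
The size of the change in GATA6 was stable, at log2 fold changes of 0.31 to 0.38 over 14 other settings, and 9 of them passed. It did not pass without control replicate 1 (edgeR adjusted p = 0.10) or without NP replicate 1 (adjusted p = 0.086). DESeq2 gave GATA6 no adjusted p under its own filter on low means (log2 fold change 0.36, unadjusted p = 0.0045) and an adjusted p of 0.22 without that filter.

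KLF5 rose by a small amount on a high level. It had 1284 and 1274 CPM in the control samples and 1373 and 1346 CPM in the NP samples. Both NP samples again lay above both control samples. The mean went from 1279 ± 6.6 to 1360 ± 18.8 CPM (n = 2 each, SD), a rise of 6.32% (95% interval 2.63% to 10.1%) and a log2 fold change of 0.09 ± 0.025 (SE, edgeR adjusted p = 0.030). The groups did not overlap for 2 of the 8 genes, both of them higher in NP samples, and among all genes tested 44.2% had groups that did not overlap and 22.5% had both NP samples above. KLF5 passed in 5 of 15 other settings. Its call was lost whichever of the 4 samples was left out (edgeR adjusted p of 0.086 to 0.37), in DESeq2 (adjusted p = 0.053) or with offsets for gene length (log2 fold change 0.07, adjusted p = 0.062).

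Its relative KLF4 was at 189.8 and 183.3 CPM in control and 189.5 and 188.1 CPM in NP samples. The groups overlapped, with a log2 fold change of 0.02 ± 0.039 (SE, edgeR adjusted p = 0.89) and a 95% interval from -4.09% to 6.85%. The ratio of KLF5 to KLF4 in FPKM was 6.73 and 6.92 in control and 7.21 and 7.12 in NP samples. This ratio was not tested, and with 2 samples per group an exact permutation test could not pass 0.05.

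The caudal factors had too few reads for small changes to be seen. CDX1 had 53 and 43 reads in control and 53 and 38 reads in NP samples, a log2 fold change of -0.03 ± 0.27 (SE, edgeR adjusted p = 0.98). CDX2 had 70 and 55 reads in control and 64 and 58 reads in NP samples, a log2 fold change of 0.02 ± 0.23 (SE, edgeR adjusted p = 0.98). The groups overlapped for both genes. The intervals ran from -32.5% to 41.8% for CDX1 and from -26.9% to 39.9% for CDX2, so a change of the size seen in GATA6 was not detectable at this depth. Left-out samples turned the sign of both estimates, from -0.17 to 0.12 for CDX1 and from -0.15 to 0.20 for CDX2 on the log2 scale.

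Brush border and surface genes did not pass. VIL1 had 289.0 and 269.9 CPM in control and 283.3 and 272.8 CPM in NP samples, with overlapping groups and a log2 fold change of -0.01 ± 0.036 (SE, edgeR adjusted p = 0.96). Its 95% interval ran from -5.27% to 4.65%. USP37, which shares exonic bases with VIL1 on the opposite strand, was lower in NP samples, with 19.2 ± 1.6 CPM in control and 14.0 ± 0.95 CPM in NP samples (n = 2 each, SD) and a log2 fold change of -0.45 ± 0.12 (SE, edgeR adjusted p = 0.012). It was named after its values were seen, and its part in the value of VIL1 was not tested. CDH17 had 291.0 and 309.1 CPM in control and 322.9 and 303.1 CPM in NP samples. NP sample 2 fell between the control samples, and the log2 fold change was 0.06 (standard error 0.035, edgeR adjusted p = 0.42, 95% interval -0.568% to 9.70%). CEACAM5 had 17.6 and 19.3 CPM in control and 18.0 CPM in both NP samples, with a log2 fold change of -0.03 ± 0.11 (SE, edgeR adjusted p = 0.93) and an interval from -15.9% to 13.8%. With 1 sample left out, the log2 fold change ran from 0.01 to 0.11 for CDH17, and it changed sign for VIL1 (-0.06 to 0.04) and CEACAM5 (-0.10 to 0.03).

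**Figure D3:**
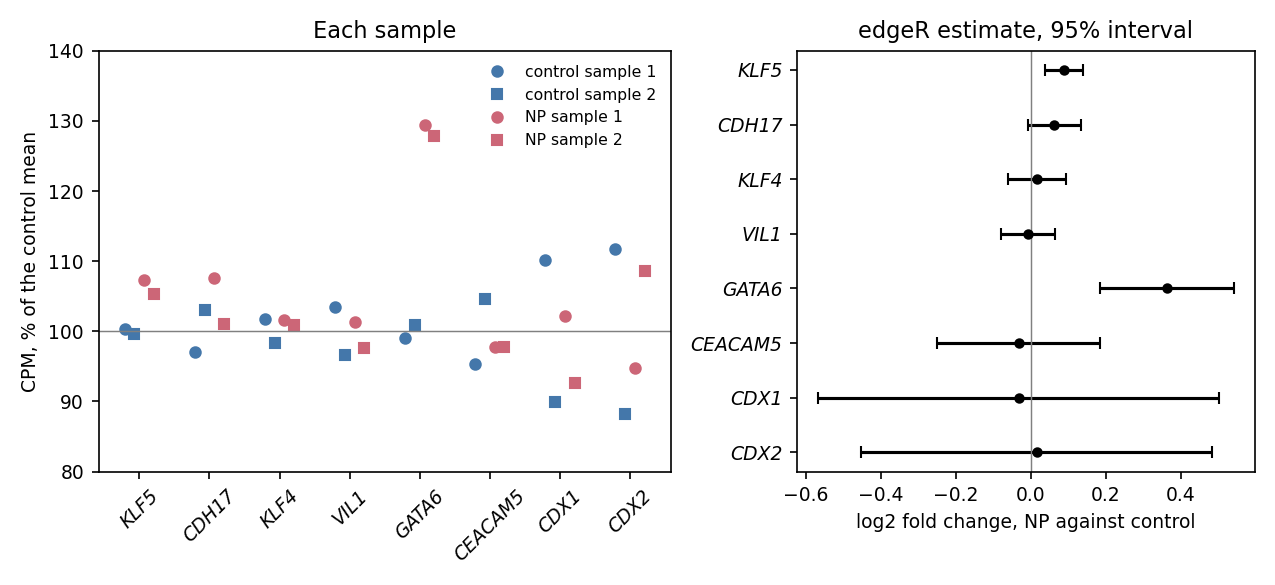
Left, CPM of each gene in each sample as a percentage of its control mean (blue, control; red, NP; circles, sample 1; squares, sample 2). Right, log2 fold change of NP against control from edgeR with its 95% interval. GATA6 has the highest points, both from NP samples, its gain being 28.7% on average and that of KLF5 6.32%, the control and NP points of the other 6 genes overlap, and the widest intervals belong to CDX1 and CDX2.

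Other genes of gut identity were read from the same fit. Of 15 tested transcription factors of gut epithelium, 2 rose, 13 did not pass and none fell, with a median log2 fold change of -0.02. Over all genes tested, 2.35% rose and 1.7% fell. ESRRA, an orphan nuclear receptor of energy metabolism, went from 92.0 ± 3.8 to 107.5 ± 1.1 CPM (n = 2 each, SD), a log2 fold change of 0.22 ± 0.049 (SE, edgeR adjusted p = 0.0019). FOXA2, a pioneer factor of endoderm, went from 45.6 ± 2.7 to 54.1 ± 2.7 CPM (n = 2 each, SD), a log2 fold change of 0.24 ± 0.070 (SE, edgeR adjusted p = 0.030). Like GATA6, both had NP samples above both control samples. FOXA2 did not pass without control replicate 1 (log2 fold change 0.18, edgeR adjusted p = 0.40), without NP replicate 2 (log2 fold change 0.20, adjusted p = 0.27), under offsets for gene length (adjusted p = 0.077), in DESeq2 (adjusted p = 0.20) or with limma (adjusted p = 0.13 and 0.12), and it passed in 8 of 15 settings. ESRRA passed in 11 of 15, but not without control replicate 2 (log2 fold change 0.18, adjusted p = 0.087), with limma (0.078 and 0.069) or in DESeq2 without its filter on means (0.11). HNF4A, a nuclear receptor of enterocyte differentiation, had a log2 fold change of -0.12 (edgeR adjusted p = 0.16), and it was named after its values were seen.

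None of the 11 tested relatives of KLF4 and KLF5 passed in edgeR, against 4.06% of all genes tested. At an unadjusted p under 0.05, 1 was higher and 2 were lower, against 15.1% of all genes. DESeq2 also called none, but with its filter on low means it gave an adjusted p to only 4789 of the 12616 genes. KLF9 was among those without one. KLF9 had a log2 fold change of 0.21 (edgeR adjusted p = 0.18, 0.11 to 0.32 with 1 sample left out) and KLF10, a factor induced by TGF-beta, one of -0.12 (adjusted p = 0.18). The highest of them, KLF6, at 56.2 FPKM, had a log2 fold change of 0.03 (edgeR adjusted p = 0.72).

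The companions of VIL1 in the brush border did not pass either. Over all genes tested, 4.06% passed in edgeR and 15.1% had an unadjusted p under 0.05, so a short list without a call lies near that share. The filter of DESeq2 on low means left some genes of these lists without an adjusted p, so they could not pass there. Among them were PDZK1, AVIL, FABP1, HPGD, DSC2 and ABCB1. Of 19 tested microvillus genes none passed in edgeR or DESeq2, an unadjusted p under 0.05 was reached by 1 higher and 1 lower gene, and the median log2 fold change was -0.02. MYO7B, a myosin of the tip links, had a log2 fold change of -0.11 and PDZK1, a scaffold of apical transporters, one of 0.21 (adjusted p = 0.16 and 0.25 from edgeR). Of 6 tested genes of the villin and gelsolin family none passed in edgeR or DESeq2, none was at an unadjusted p under 0.05, and the median was -0.07. FLII and AVIL had the smallest p of them, at -0.08 and -0.49 in log2 fold change (edgeR adjusted p = 0.38 for both). Of 8 tested brush border enzymes and transporters none passed in edgeR or DESeq2 and 1 was higher at an unadjusted p under 0.05. This was SLC5A1, with a log2 fold change of 0.16 (edgeR adjusted p = 0.16, 0.08 to 0.23 with 1 sample left out). SLC9A3 was next by p, at a log2 fold change of -0.04 (edgeR adjusted p = 0.71). None of 6 tested colonocyte genes passed in edgeR, in DESeq2 or at an unadjusted p under 0.05, and the smallest p belonged to FABP1, with a log2 fold change of 0.23 (edgeR adjusted p = 0.36), and HPGD, a prostaglandin dehydrogenase, with one of -0.23 (adjusted p = 0.60). With 1 sample left out they ran from 0.09 to 0.35 for FABP1 and from -0.39 to -0.06 for HPGD. The 4 tested genes known to be regulated by CDX2 also gave no call in edgeR, in DESeq2 or at an unadjusted p under 0.05, with DSC2 at -0.07 and the efflux pump ABCB1 at -0.22 in log2 fold change (edgeR adjusted p = 0.72 and 0.86).

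Surface antigens beside CDH17 gave 2 calls. Of 7 tested, TSPAN8 and MUC13 rose, 5 did not pass and none fell, with a median log2 fold change of 0.07, against the same 2.35% and 1.7% over all genes tested. TSPAN8, a tetraspanin of intestinal cells, went from 243.0 ± 2.5 to 266.9 ± 5.1 CPM (n = 2 each, SD), a log2 fold change of 0.14 ± 0.036 (SE, edgeR adjusted p = 0.013). MUC13 went from 1132 ± 6.1 to 1208 ± 19.6 CPM (n = 2 each, SD), a log2 fold change of 0.09 ± 0.026 (SE, edgeR adjusted p = 0.022), close in size to that of KLF5. Neither passed without control replicate 1 (adjusted p = 0.17 and 0.15 from edgeR), without NP replicate 1 (0.23 and 0.35) or with offsets for gene length (0.10 and 0.055), and MUC13 also not without NP replicate 2 (adjusted p = 0.059). In DESeq2 MUC13 passed (adjusted p = 0.044) and TSPAN8 did not (0.089), with limma neither passed (adjusted p of 0.10 to 0.19), and each passed in 8 of 15 settings. Of the relatives of CEACAM5, 3 were tested, and none passed in edgeR or at an unadjusted p under 0.05. Over all genes tested these shares were 4.06% and 15.1%. DESeq2 called none of the 3, but its filter on low means gave CEACAM1 and CEACAM6 no adjusted p. CEACAM6, with 25 to 37 reads per sample, had a log2 fold change of 0.37 ± 0.34 (SE, edgeR adjusted p = 0.68), and 0.04 to 0.68 with 1 sample left out. CEACAM1 had one of 0.05 (adjusted p = 0.84).

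**Figure D4:**
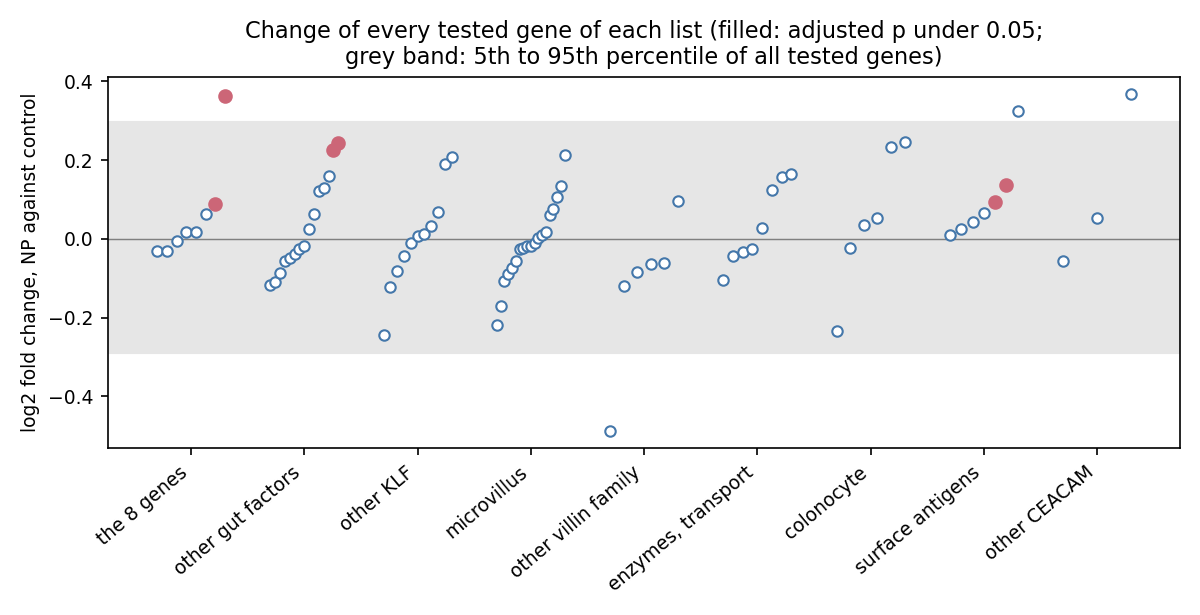
Log2 fold change of NP against control for every tested gene of each list shown, with 1 point per gene (filled red, adjusted p under 0.05 in edgeR; open blue, not passed; grey band, -0.29 to 0.30, the 5th to 95th percentile of all genes tested). The list of genes regulated by CDX2 and the lists of markers are not shown. GATA6 is the filled point above the band, and the other filled points, KLF5, ESRRA, FOXA2, TSPAN8 and MUC13, lie within it.

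Genes with the pattern most like that of the members were sought among 11441 other tested genes with at least 30 counts on average. Likeness was the root mean square difference over the 4 samples between log2 CPM values centred on the control mean. Nearest to GATA6 were TMEM126A, FRAT2 and RPL31, at 0.012, 0.012 and 0.019 on the log2 scale, and their log2 fold changes were 0.35, 0.37 and 0.38. Nearest to KLF5 were SRP68, SH3GLB2 and MRPS10, at 0.0026, 0.0032 and 0.0036, and nearest to CDH17 were ZBTB24, MYO6 and TMEM50A, at 0.0052, 0.0073 and 0.0077. With only 4 samples many genes share such a pattern.

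The samples held 13401691 to 16998129 counted reads, and 14712 to 14893 genes had at least 1 read. Within groups, the chi-square per gene was 1.92 for control and 1.87 for NP, where 1 would be counting noise alone. Short genes were slightly higher in NP samples across the table: the median log2 fold change was 0.04 in the class of the 2524 shortest tested genes (up to 2933 bases) and -0.03 in that of the 2524 longest (8415 bases or more). GATA6, at 3996 bases, and KLF5, at 3679 bases, belong to neither class. With offsets for gene length, GATA6 stayed at a log2 fold change of 0.35 (edgeR adjusted p = 0.0087). KLF5 went from 0.09 to 0.07 with these offsets and no longer passed (edgeR adjusted p = 0.062).

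**Figure D5:**
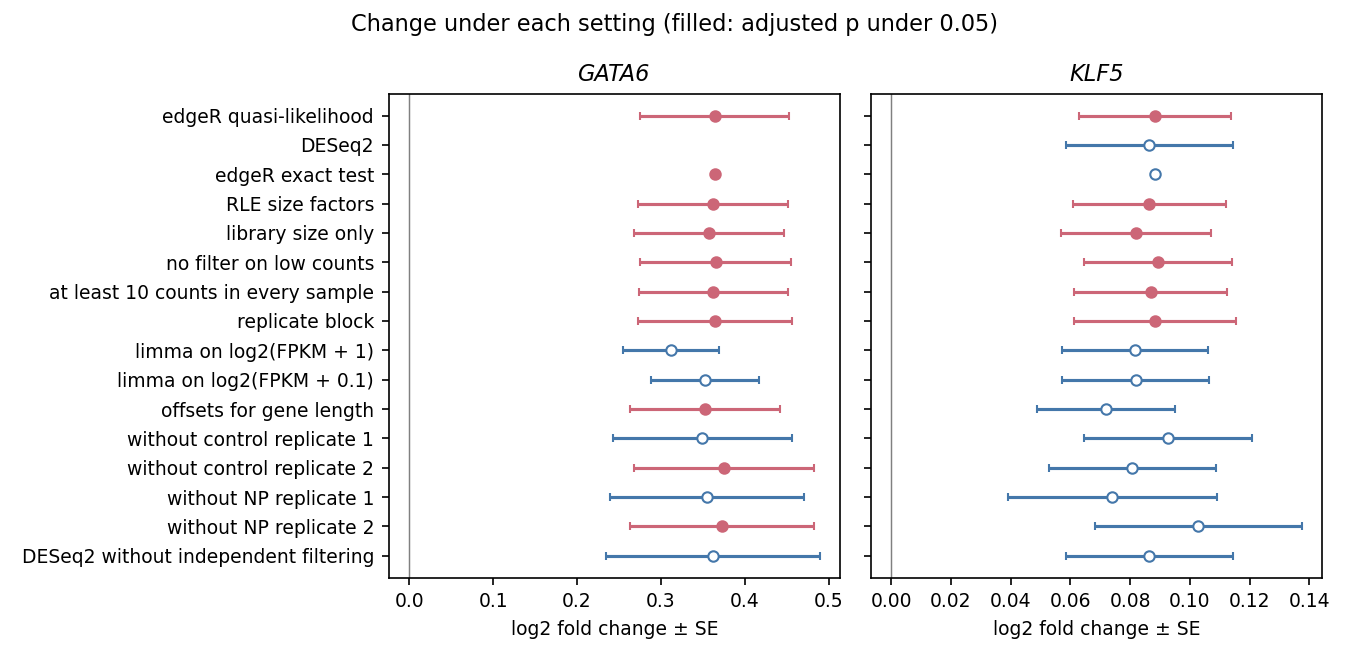
Log2 fold change of GATA6 (left) and KLF5 (right) under edgeR's quasi-likelihood test and each other setting, with its standard error where the tool gives one (filled red, adjusted p under 0.05; open blue, not passed). DESeq2 with its own filter gave GATA6 no adjusted p and is left blank there; the estimates of GATA6 stay between 0.31 and 0.38 and those of KLF5 between 0.07 and 0.10, and KLF5 is open in every setting that leaves out a sample.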

How the data were processed

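RNA sequencing of COLO205 cells covered 2 control and 2 NP samples, grouped by the labels. The deposited raw counts are whole numbers. HISAT2, HTSeq and the build GRCh38 are named in the submitters' processing notes, without versions. Deposited FPKM values equal the count over length over the sample's summed counts, within 5.13e-13%. The gene length column, of unit other, was deposited by the authors.

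Counts were filtered with filterByExpr (minimum count of 10), scaled with TMM and tested with edgeR 4.0.16 (R 4.3.3). Standard errors were taken from the fold change and its F statistic. Depth was 13401691 to 16998129 counts. Common dispersion was 0.000704 (biological coefficient of variation 2.65%). Intervals are at 95%. A floor of 3 reads covers counting error only. Alternatives were DESeq2 1.42.0, edgeR's exact test, RLE factors, library size only, other filters, left-out samples, a replicate block, limma 3.58.1 on log2(FPKM + 1) and log2(FPKM + 0.1), and offsets for gene length. DESeq2 without its filter on means was added after the data were seen. Steps were tested on simulated data. Members and lists were chosen with earlier results of these data known. Every member was named, and from each related list the genes past the threshold (at most 5), else the 2 with the smallest p, plus the 3 highest by FPKM. Windows came from RefSeq, gene overlaps from GENCODE release 29, and 5 of 8 genes had a window. The study's methods used DESeq. DESeq and the study's cutoff were not the main test here.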

Additional observations from a re-analysis of the deposited data

How the results depend on the processing

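Over all genes tested, 297 were higher and 215 lower in edgeR. These counts were 109 and 72 in DESeq2, 78 and 47 in DESeq2 without its filter on means, 45 and 16 with limma on log2(FPKM + 1), and 53 and 18 with limma on log2(FPKM + 0.1). With 1 sample left out they were 104 to 237 higher and 67 to 150 lower. The number of the 8 genes that were higher was 2 in edgeR, 0 in both DESeq2 settings and both limma settings, 1 with the exact test and with offsets for gene length, and 0 to 1 with 1 sample left out. GATA6 had no adjusted p in DESeq2 with its filter and is not a lost call there. The log2 fold change of KLF5 was no longer past the threshold in DESeq2 with and without its filter (0.086 in each), with the exact test (0.088), with limma (0.082 on either pseudocount) and with offsets for gene length (0.072), and without 1 sample it was 0.074 to 0.10. For GATA6 the values not past the threshold were 0.31 and 0.35 with limma on log2(FPKM + 1) and log2(FPKM + 0.1) and 0.36 in DESeq2 without its filter, and without 1 sample it was 0.35 to 0.38. No value that passed in any setting changed direction. Why the calls were lost in DESeq2 and limma was not tested; with a sample left out, fewer samples entered the fit.

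The labels number the samples of both groups, without naming a shared culture or day. The correlation of the deviations of same-numbered samples was -0.0031 over genes. With the replicate block, the log2 fold change was 0.36 for GATA6 (edgeR adjusted p = 0.0032) and 0.09 for KLF5 (adjusted p = 0.028), and the block changed no call among the 8 genes. With TMM scaling, the mean level of each of the 8 genes over the 4 samples moved by less than 1 SD. Depth limited CDX1, CDX2 and CEACAM5 most.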

Other observations

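Among markers of intestinal stem cells, which were not part of the comparisons above, 4 of 5 were tested, 1 fell and none rose, against 1.7% and 2.35% of all genes tested. SMOC2, a secreted matricellular protein of crypt base cells, went from 60.6 ± 2.7 to 52.0 ± 2.7 CPM (n = 2 each, SD), a log2 fold change of -0.22 ± 0.066 (SE, edgeR adjusted p = 0.042). It did not pass in DESeq2 (adjusted p = 0.22), without control replicate 1 (log2 fold change -0.17, adjusted p = 0.40), without NP replicate 1 (-0.28, adjusted p = 0.056) or without NP replicate 2 (-0.17, adjusted p = 0.32). ASCL2, a factor of crypt base stem cells, stood at 44.1 FPKM on average, with a log2 fold change of 0.10 (edgeR adjusted p = 0.40). OLFM4, another crypt base marker, had no read in any sample. LYZ (lysozyme), listed as a leukocyte marker and also a product of Paneth cells, averaged 199 FPKM, while PTPRC, CD3E and MS4A1 had no read. LYZ had a log2 fold change of 0.11 (edgeR adjusted p = 0.047) and passed in 3 of 15 other settings, with 0.07 to 0.14 when 1 sample was left out, the lowest value being without NP replicate 1 (edgeR adjusted p = 0.56). Over all genes tested, 15.1% reached an unadjusted p under 0.05. None of the 2 tested markers of small intestine passed in edgeR, and 1 was higher at an unadjusted p under 0.05. This was RBP2, a retinol-binding protein, with 23 and 9 reads in control and 29 and 27 reads in NP samples, a log2 fold change of 0.85 ± 0.41 (SE, edgeR adjusted p = 0.30). It was 0.34 to 1.67 with 1 sample left out.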
